A study of Schizosaccharomyces pombe with 12 samples.

Results

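In fission yeast, Schizosaccharomyces pombe, the gene dcr1 (SPCC188.13c) encodes Dicer. The neighbouring genes spn6 (SPCC188.12) and prp45 (SPCC188.11) lie beside it on chromosome III. These 3 genes, taken by their systematic IDs, are described here out of 5483 features in the table. The members were chosen by name with their log2 levels in the 4 strains already known, so all 6 differences between strains count as used in the choice. Their own values are given as a description, with no test.

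RNA was measured on 12 tiling arrays, 3 biological replicates for each of 4 strains collected in growth at an OD600 of 0.5. The strains are wild-type, dcr1Δ, in which the Dicer gene is deleted, dcr1ΔC33 and dcr1-SHSS. The labels give no other allele, marker or treatment, and do not say how the alleles were built. From general knowledge, dcr1ΔC33 is read as Dicer without its last 33 residues and dcr1-SHSS as Dicer with a changed zinc-binding motif. The title of the study places that motif in an extended RNA-binding domain that keeps Dicer in the nucleus. Each strain has a single name in the labels, which do not say whether its arrays came from a single isolate. The allele and anything else that sets a strain apart thus cannot be told apart. Each array gave 1 log2 level per feature, with array medians between 11.37 and 11.42, and the median SD within a strain lay between 0.0538 and 0.0715. A difference of 1 on this scale is a 2-fold difference in signal, and levels of different genes are not compared because the probes differ.

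Dicer is a ribonuclease that cuts double-stranded RNA into small interfering RNAs. In fission yeast these guide the Argonaute protein to transcripts of the centromere repeats, where heterochromatin is then built. Septins are GTP-binding proteins that form filaments. In this yeast some of them make a ring at the division site, while spn6 belongs to the septins that act in forming spores. The product of prp45 is the SNW/SKIP protein, a conserved part of the spliceosome. The trailing c in SPCC188.13c marks the strand opposite to that of the other 2 genes in the naming scheme of this genome. In the reference annotation ASM294v3, the annotated spans of dcr1 and spn6 overlap, while that of prp45 overlaps neither. Because the arrays were hybridised with double-stranded target, transcripts of dcr1 and of spn6 cannot be distinguished in the shared stretch. The labels do not say which probes made up each feature.

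The deleted gene came out as labelled. The dcr1 level was 10.49, 10.57 and 10.60 on the wild-type arrays and 5.52, 5.80 and 5.37 on the dcr1Δ arrays. All 3 dcr1Δ arrays lay far below all 3 wild-type arrays. The mean was 10.55 ± 0.0586 (SD, n = 3) in wild-type and 5.56 ± 0.221 in dcr1Δ. In dcr1Δ the gene held rank 91, 144 and 74 from the lowest of 5483 features, close to the level of the lowest 1 percent of features on those arrays (5.24 to 5.26). This is about background, so the difference of -4.99 ± 0.0868 (SE, log2) is read as at least 31.8-fold lower. It had the lowest log2 difference of all features in this comparison.

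Neither of the other alleles had less dcr1 RNA signal than wild-type. The dcr1 level was 10.86, 10.89 and 10.85 on the dcr1ΔC33 arrays, all above the highest wild-type array. It was 10.67, 10.70 and 10.64 on the dcr1-SHSS arrays, whose lowest value lay 0.04 above the highest wild-type value. The log2 difference from wild-type was 0.31 ± 0.0868 (SE) in dcr1ΔC33, or 1.24-fold, and 0.12 ± 0.0868 in dcr1-SHSS, or 1.08-fold. Between these 2 alleles the difference was 0.20 ± 0.0868, higher in dcr1ΔC33, with no overlap of arrays. The levels of dcr1 thus ran in the order dcr1Δ, wild-type, dcr1-SHSS and dcr1ΔC33, and no neighbours in this order overlapped. The step from wild-type to dcr1-SHSS was little larger than its SE. These are levels of the dcr1 feature, which may include spn6 transcripts in the shared stretch, and that part was not tested. Ranked from the highest among all features, the dcr1 difference from wild-type held place 554 in dcr1ΔC33 and place 1124 in dcr1-SHSS.

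The septin gene spn6 was the member that differed most between wild-type and the 2 strains that still have dcr1 signal. Its level was 7.79, 7.46 and 7.80 on the wild-type arrays. On the dcr1Δ arrays it was 8.40, 8.38 and 8.37, above every wild-type array and with the smallest spread of any strain. On the dcr1ΔC33 arrays it was 9.11, 9.25 and 9.08. On the dcr1-SHSS arrays it was 9.18, 8.91 and 9.17. The strains fell into 3 levels, with wild-type lowest, dcr1Δ between, and dcr1ΔC33 and dcr1-SHSS highest and overlapping each other. These are levels of the spn6 feature, whose annotated span overlaps that of dcr1. How far signal from the shared stretch, or its loss if the deletion reaches that stretch, enters them was not tested.

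The mean spn6 level was 7.68 ± 0.195 (SD, n = 3) for wild-type and 8.38 ± 0.0195 for dcr1Δ. It was 9.15 ± 0.0916 for dcr1ΔC33 and 9.08 ± 0.152 for dcr1-SHSS. Against wild-type this is a log2 difference of 0.70 ± 0.098 (SE), or 1.62-fold, in dcr1Δ. In dcr1ΔC33 it is 1.46 ± 0.098, or 2.76-fold, and in dcr1-SHSS 1.40 ± 0.098, or 2.64-fold. Compared with dcr1Δ, spn6 was higher by 0.77 ± 0.098 in dcr1ΔC33 and by 0.70 ± 0.098 in dcr1-SHSS, again with no overlap. Between dcr1ΔC33 and dcr1-SHSS the difference was 0.06 ± 0.098, smaller than its SE. Among all features the difference from wild-type ranked 64 from the highest for dcr1Δ, 53 for dcr1ΔC33 and 73 for dcr1-SHSS. The feature stayed dim in every strain, between the percentiles 8.43 and 9.08 of its array for wild-type, 10.8 and 11.3 for dcr1Δ, 16 and 17.5 for dcr1ΔC33, and 15.3 and 17.4 for dcr1-SHSS.

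The splicing gene prp45, the next gene after spn6, differed less. Its level was 8.74, 8.46 and 8.60 on the wild-type arrays and 8.84, 8.81 and 8.69 on the dcr1Δ arrays, so these groups overlapped. It was 8.87, 8.92 and 8.99 on the dcr1ΔC33 arrays, which lay above every array of the other 3 strains. On the dcr1-SHSS arrays it was 8.78, 8.74 and 8.67, overlapping both wild-type and dcr1Δ. The means were 8.60 ± 0.14 (SD, n = 3), 8.78 ± 0.0778, 8.93 ± 0.063 and 8.73 ± 0.0562 in wild-type, dcr1Δ, dcr1ΔC33 and dcr1-SHSS. Against wild-type the log2 difference was 0.18 ± 0.0697 (SE) for dcr1Δ, 0.33 ± 0.0697 for dcr1ΔC33, or 1.25-fold, and 0.13 ± 0.0697 for dcr1-SHSS. The gene was higher in dcr1ΔC33 than in dcr1Δ by 0.14 ± 0.0697 and higher than in dcr1-SHSS by 0.19 ± 0.0697. In order of level, wild-type, dcr1-SHSS and dcr1Δ did not separate beyond their spread, and dcr1ΔC33 stood above them.

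**Figure D1:**
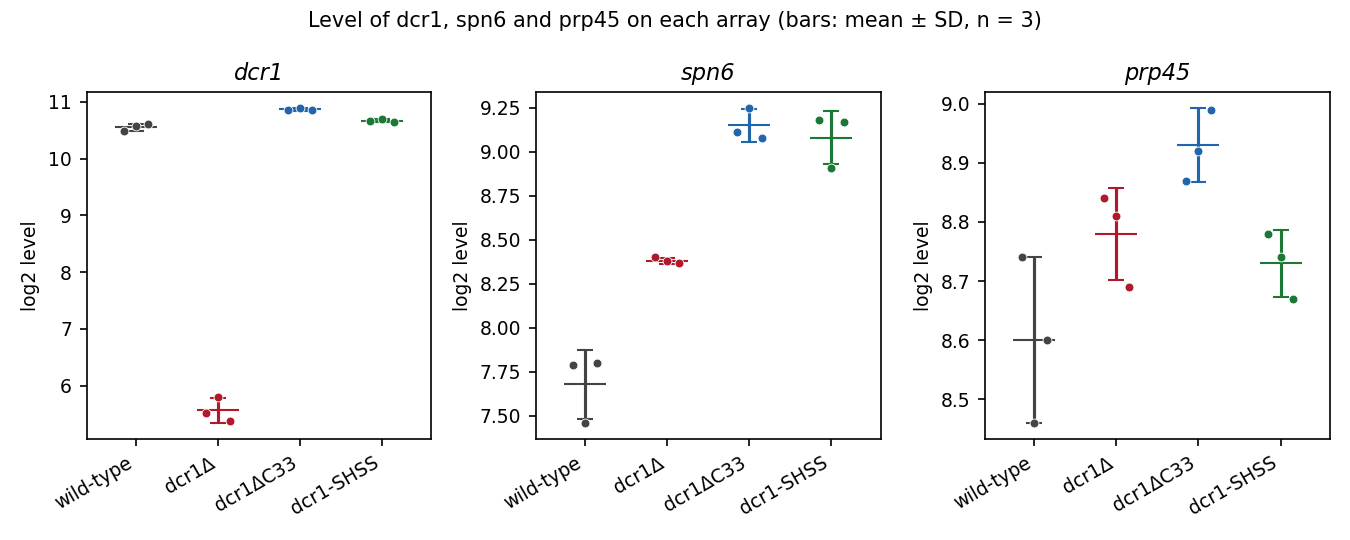
Log2 level of dcr1, spn6 and prp45 (a panel each, with its own vertical scale) on each array of the 4 strains; points are arrays, horizontal marks with bars are the mean ± SD of 3 arrays. The dcr1 level is near 5.56 in dcr1Δ and above 10 elsewhere, spn6 is lowest in wild-type and highest in dcr1ΔC33 and dcr1-SHSS, and prp45 is highest in dcr1ΔC33.

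These counts have to be read beside what all features did. In dcr1Δ against wild-type, 1 of 3 members (spn6) lay higher without overlap, as did 11.6% of all features, and 1 (dcr1) lay lower without overlap, as did 9.45%. In dcr1ΔC33 all 3 members were higher than wild-type without overlap, as were 20.6% of all features. In dcr1-SHSS, dcr1 and spn6 were higher without overlap, as were 17.8% of all features. In the comparison of dcr1ΔC33 with dcr1Δ all 3 were higher without overlap, beside 13.5% of all features, and in that of dcr1-SHSS with dcr1Δ, dcr1 and spn6 were, beside 14% of all features. Between dcr1ΔC33 and dcr1-SHSS, dcr1 and prp45 were higher in dcr1ΔC33 without overlap, as were 16% of all features. The 3 comparisons with wild-type share the wild-type arrays. The median difference over all features was 0.00 for dcr1Δ, -0.03 for dcr1ΔC33 and -0.06 for dcr1-SHSS.

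**Figure D2:**
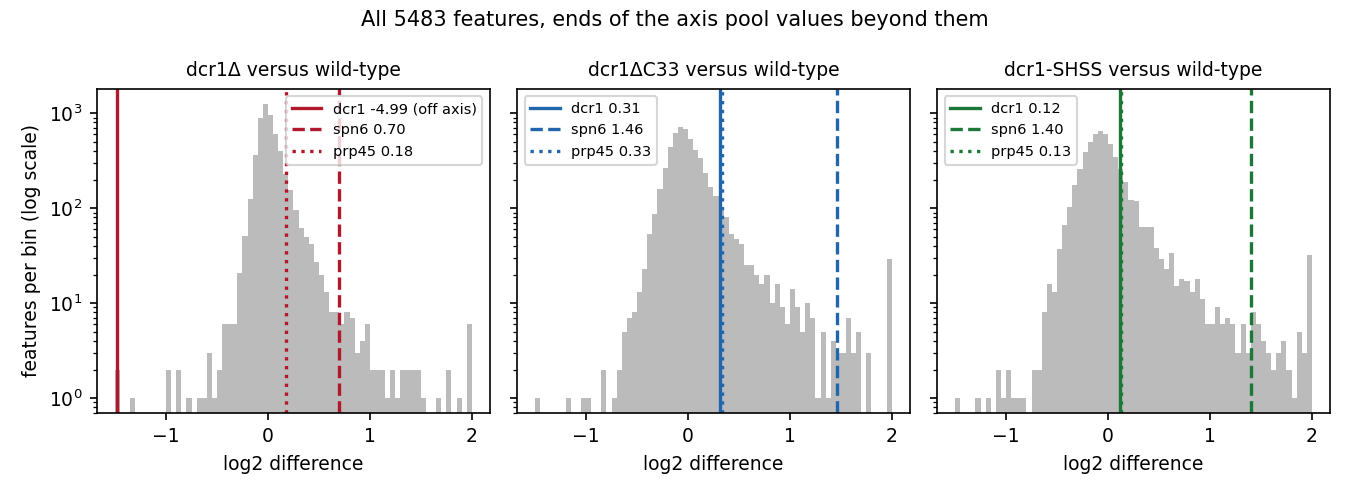
Histograms of the log2 difference from wild-type over all 5483 features in bins of width 0.05 (vertical log scale), for dcr1Δ, dcr1ΔC33 and dcr1-SHSS; vertical lines mark dcr1 (solid), spn6 (dashed) and prp45 (dotted). In each panel spn6 lies in the upper tail (0.70, 1.46 and 1.40), while prp45 lies on the upper shoulder, and dcr1 is off the axis in dcr1Δ at -4.99.

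A single wild-type array bears on spn6 and prp45. Wild-type array 2 lay 0.34 below the mean of the other 2 wild-type arrays for spn6 and 0.21 below it for prp45, while the lowest 20 percent of features on that array lay 0.12 below in the median. Without wild-type array 2 the spn6 difference was 0.59 for dcr1Δ, 1.35 for dcr1ΔC33 and 1.29 for dcr1-SHSS. The prp45 difference without it was 0.11, 0.26 and 0.06. Quantile normalization, which makes all arrays equal in distribution, gave spn6 differences of 0.49, 1.24 and 1.25 and prp45 differences of 0.07, 0.18 and 0.09. The spn6 difference thus kept its sign and most of its size in dcr1ΔC33 and dcr1-SHSS, whereas the prp45 difference shrank by more than 1.5 times in all 3 strains after one or both of these changes.

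The surroundings of the 3 genes were examined next, as the 18 other measured features among the 10 nearest on each side of dcr1. The nearest feature on the side away from spn6, svf1, showed no difference. Its level was 14.32, 14.33 and 14.33 on the wild-type arrays and between 14.27 and 14.36 on the 9 arrays of the mutants. The log2 differences were 0.00 ± 0.0302 (SE) in dcr1Δ and dcr1-SHSS and -0.03 ± 0.0302 in dcr1ΔC33, and none passed an adjusted p of 0.05 (limma with Benjamini-Hochberg adjustment over all features; 0.985, 0.944 and 0.457). Beyond svf1, the non-coding RNA prl51 rose by 0.46 ± 0.132 in dcr1ΔC33 (adjusted p = 0.0232), a call that was lost when wild-type array 2 or array 1 of dcr1ΔC33 was left out and after quantile normalization (adjusted p = 0.237). Its difference was 0.41 ± 0.132 in dcr1Δ (adjusted p = 0.144) and 0.09 ± 0.132 in dcr1-SHSS (0.593).

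On the other side, the nearest features beyond prp45 rose in dcr1ΔC33 and dcr1-SHSS, by less than spn6 differed. The pseudogene SPCC188.10c rose by 0.26 ± 0.0538 (limma adjusted p = 0.00537) and 0.27 ± 0.0538 (0.00336) in these strains. The flocculin-family gene pfl4 rose by 0.30 ± 0.0412 (0.000592) and 0.21 ± 0.0412 (0.00315). The ubiquitin protease gene ubp5 had levels of 12.02, 12.03 and 12.07 in wild-type, 12.32, 12.36 and 12.39 in dcr1ΔC33, and 12.46, 12.39 and 12.50 in dcr1-SHSS. All mutant arrays lay above all wild-type arrays, and ubp5 rose by 0.32 ± 0.0366 (adjusted p = 0.000201) and 0.41 ± 0.0366 (2.66e-05). In dcr1Δ these 3 features differed by 0.10, 0.17 and 0.09, and none passed (adjusted p = 0.383, 0.0557 and 0.221). Further out, ccq1, srp54, cnd3 and spc25 did not pass in any comparison with wild-type. At the end of the window the phosphatase regulator gene par1 fell by 0.15 in dcr1ΔC33 (adjusted p = 0.0145) and differed by -0.11 in dcr1Δ (0.173) and -0.08 in dcr1-SHSS (0.15).

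In dcr1ΔC33 and dcr1-SHSS the feature with the largest tested rise in the window was not a direct neighbour. SPCC584.16c, on the svf1 side, had levels of 13.30, 13.48 and 13.41 in wild-type and 13.58, 13.67 and 13.69 in dcr1Δ. It reached 14.02, 13.95 and 13.95 in dcr1ΔC33 and 14.05, 14.16 and 14.18 in dcr1-SHSS. Its rise was 0.58 ± 0.0552 (SE, limma adjusted p = 5.69e-05) in dcr1ΔC33 and 0.74 ± 0.0552 (7.64e-06) in dcr1-SHSS. In dcr1Δ it rose by 0.25 ± 0.0552 (0.0374), a call lost when array 1 or 3 of wild-type or array 2 or 3 of dcr1Δ was left out (adjusted p up to 0.13). Like spn6, it was lowest in wild-type and higher in dcr1ΔC33 and dcr1-SHSS than in dcr1Δ.

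Other genes on the svf1 side moved less. The meiotically upregulated gene mug42 rose by 0.25 ± 0.0521, 0.34 ± 0.0521 and 0.26 ± 0.0521 in dcr1Δ, dcr1ΔC33 and dcr1-SHSS (limma adjusted p = 0.034, 0.00101 and 0.00326). The call in dcr1Δ was lost without 5 of 6 arrays in turn (adjusted p up to 0.123). The arrestin-related gene aly3 rose by 0.16 ± 0.0519 in dcr1ΔC33 (adjusted p = 0.0409, up to 0.125 without single arrays) and by 0.27 ± 0.0519 in dcr1-SHSS (0.00272). In dcr1-SHSS, SPCC584.03c rose by 0.23 ± 0.0711 (0.0284) and mug160 fell by 0.23 (0.0445), and each call was lost without 4 of 6 arrays in turn. SPCC584.13, the sulfite reductase gene met10 and cuf2 did not pass in any comparison with wild-type.

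Counted over the window, 2 of 18 features passed in dcr1Δ, both higher. This is 11.1%, beside 3.14% of all features, and 0 to 1 passed without single arrays in turn. In dcr1ΔC33 8 of 18 passed, 7 higher and 1 lower, which is 44.4% beside 32.3% of all features. In dcr1-SHSS it was also 7 higher and 1 lower, or 44.4% beside 40.7% of all features. With both directions pooled, the share was thus near the background in dcr1-SHSS. Split by direction it was not, with 7 of 18 higher beside 15% of all features and 1 of 18 lower beside 25.8%. By direction, 2.81% of all features rose and 0.328% fell in dcr1Δ, 14.7% and 17.6% in dcr1ΔC33, and 15% and 25.8% in dcr1-SHSS. The median difference in the window was 0.07, 0.06 and 0.05 in dcr1Δ, dcr1ΔC33 and dcr1-SHSS, beside 0.00, -0.03 and -0.06 over all features. The highest difference among the 18 was 0.41, 0.58 and 0.74, and that of spn6 was above it in each comparison.

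**Figure D3:**
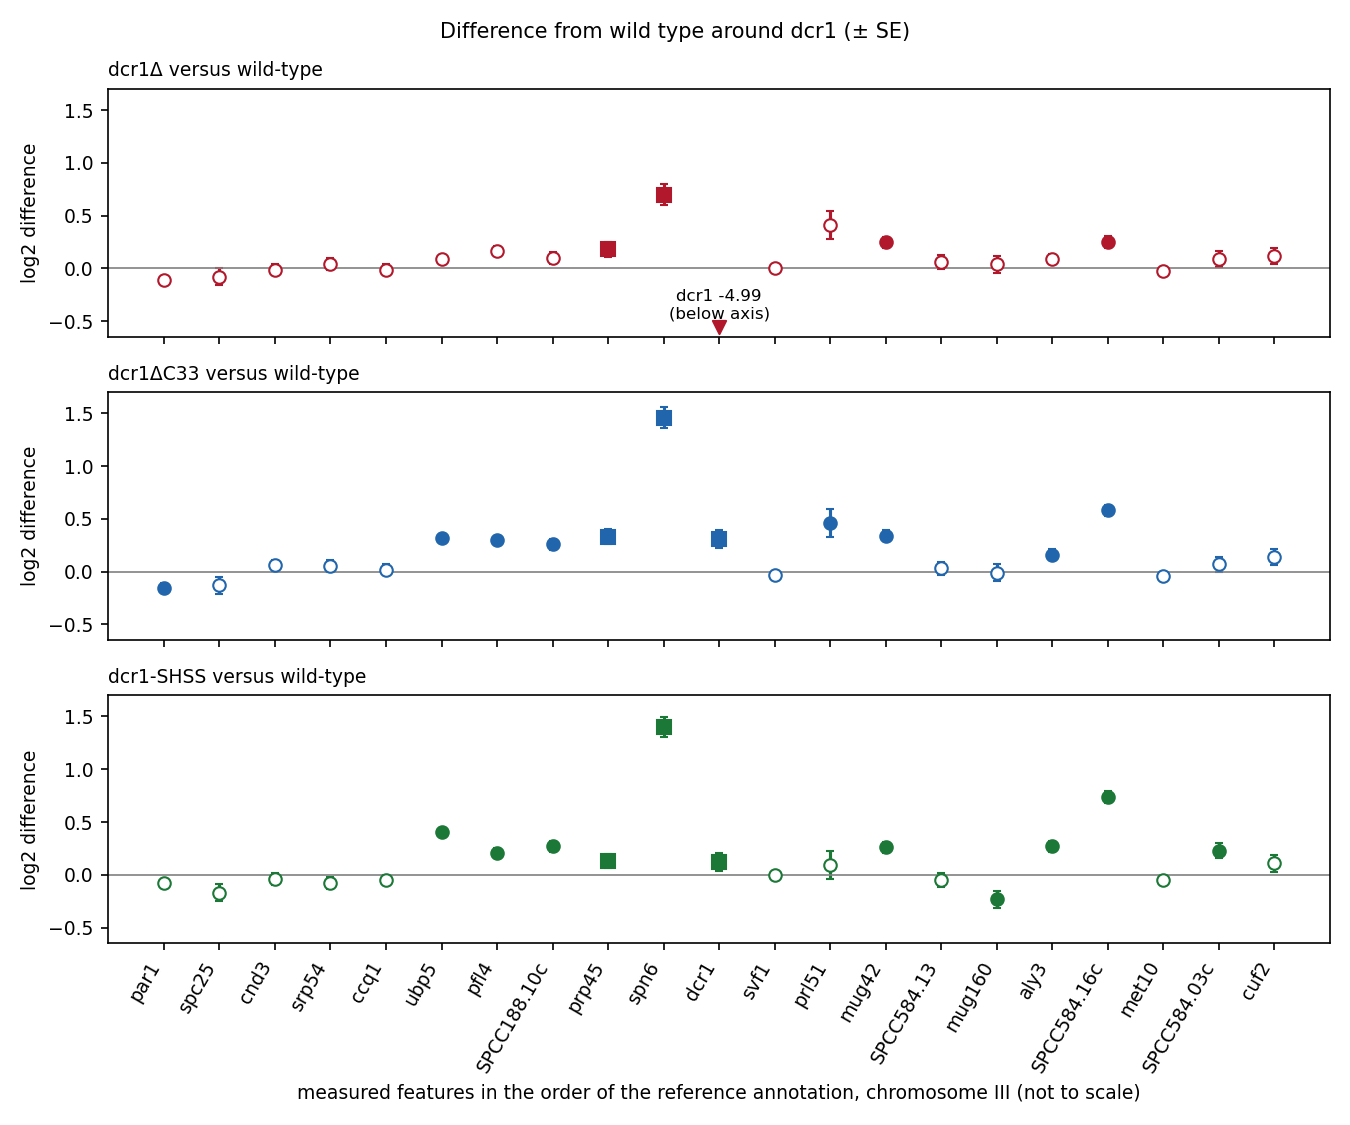
Log2 difference from wild-type (± SE) for dcr1, the 10 measured features on each side of it in the order of the reference annotation (horizontal axis, not to scale), in dcr1Δ, dcr1ΔC33 and dcr1-SHSS. Squares are dcr1, spn6 and prp45, which were not tested; filled circles passed an adjusted p of 0.05 and open circles did not. The spn6 square is the highest point in each panel and svf1, next to dcr1 on the other side, lies at 0.00, -0.03 and 0.00.

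The family of spn6 was followed in the same strains. The genes spn1, spn2, spn3 and spn4 encode the septins of the division ring, and spn2, spn5 and spn7 act with spn6 in spore formation. None of these 6 other septin genes rose in any mutant. In dcr1Δ 0 of 6 passed the adjusted threshold of limma, beside 3.14% of all features, and 0 had an unadjusted p below 0.05, with differences between -0.05 and -0.01. In dcr1ΔC33 0 of 6 passed, beside 32.3% of all features, with differences between -0.09 and 0.08 and 0 at an unadjusted p below 0.05; the highest, spn5 at 0.08, turned to -0.18 after quantile normalization (adjusted p = 0.0224). In dcr1-SHSS 3 of 6 fell, beside 25.8% of all features that fell. The spore septin gene spn5 had levels of 7.58, 7.51 and 7.71 in wild-type and 7.30, 7.26 and 7.37 in dcr1-SHSS, a fall of 0.29 (adjusted p = 0.00473) with no overlap. The genes spn1 and spn3 fell by 0.16 and 0.11 (0.0301 and 0.0321), and these calls were lost without 4 and 5 of 6 arrays in turn. The gene spn7 differed by -0.04, -0.05 and -0.02 in dcr1Δ, dcr1ΔC33 and dcr1-SHSS (adjusted p = 0.84, 0.674 and 0.848). The median difference of the 6 was -0.03, -0.04 and -0.12.

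**Figure D4:**
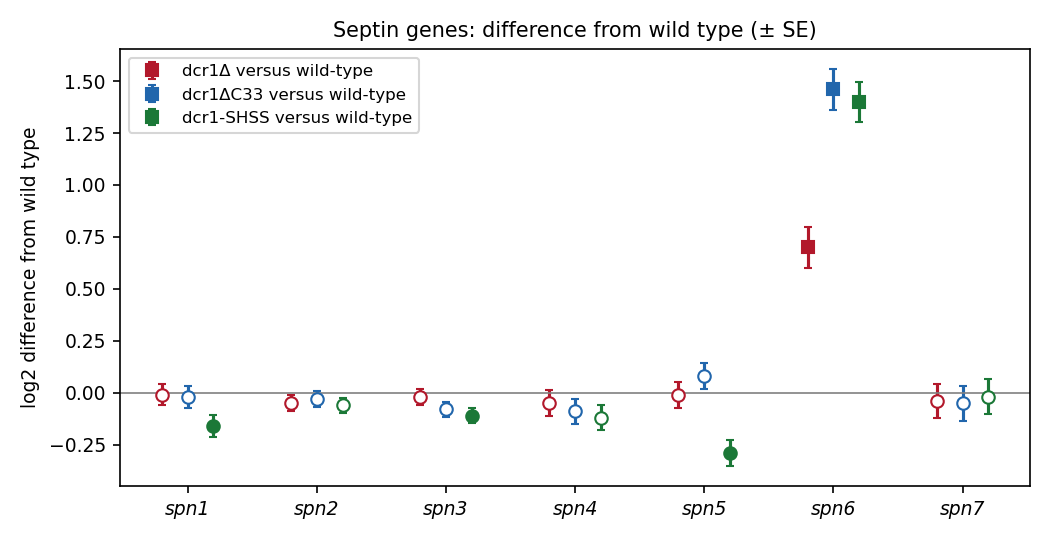
Log2 difference from wild-type (± SE) of the 7 septin genes in dcr1Δ, dcr1ΔC33 and dcr1-SHSS. The spn6 squares, not tested, lie at 0.70, 1.46 and 1.40; the circles of the other 6 genes lie between -0.29 and 0.08, filled where they passed an adjusted p of 0.05.

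Because spn6 is a gene of spore formation, 19 markers of meiosis and sporulation were set beside it. In dcr1Δ 2 of 19 rose and none fell (10.5%, beside 3.14% of all features). The spore wall gene isp3 rose by 0.91 ± 0.109 (SE, limma adjusted p = 0.000993) and spo6, which encodes the regulatory partner of the Spo4 kinase, by 0.48 ± 0.0646 (0.00196). In dcr1ΔC33 3 rose and 2 fell (26.3%, beside 32.3% of all features), or 5 and 3 with the replicate number as a block (beside 2267 of 5483 features). Here mei3, the inducer of meiosis, rose by 1.15 ± 0.145 (adjusted p = 0.00033), isp3 by 1.08 ± 0.109 (8.22e-05) and the recombinase gene dmc1 by 0.40 ± 0.102 (0.0136, and 0.0534 without dcr1ΔC33 array 3). The 2 that fell were mde2 (-0.27, limma adjusted p = 0.017) and agn2 (-0.17, 0.0136). In dcr1-SHSS 2 rose and 5 fell (36.8%, beside 40.7% of all features). Here mei3 rose by 1.17 ± 0.145 (0.000223), isp3 rose by 0.89 ± 0.109 (0.000217), and the kinase gene spo4 fell by 0.44 (0.000267). The others that fell were mde2 (-0.37, limma adjusted p = 0.00254), spo3 (-0.23, 0.00143), spo6 (-0.21, 0.0264) and agn2 (-0.2, 0.00418). The gene mei2 differed by -0.43, -0.71 and -0.58 in dcr1Δ, dcr1ΔC33 and dcr1-SHSS and did not pass (limma adjusted p = 0.651, 0.23 and 0.306).

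Over the whole marker list, the mean log2 level per array was 9.22 to 9.26 for wild-type, 9.31 to 9.44 for dcr1Δ, 9.33 to 9.41 for dcr1ΔC33 and 9.26 to 9.32 for dcr1-SHSS. The summed level on the linear scale was 19936 to 21040, 21197 to 22297, 20847 to 22044 and 20031 to 21372 in the same order, in signal units of the arrays. The summed level in dcr1Δ lay above that in wild-type on every array, while those in dcr1ΔC33 and dcr1-SHSS overlapped it. Of the 19 markers, 10 in wild-type and dcr1-SHSS and 9 in dcr1Δ and dcr1ΔC33 lay in the lowest 20 percent of features, with ssm4 lowest at 6.68 to 6.71. The part of meiotic cells in the spn6 difference was not tested. In bulk RNA, more cells with a transcript and more transcript per cell cannot be told apart.

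The splicing partners of prp45 were taken as 29 genes of the Cdc5 and Prp19 complexes of the spliceosome, all of them measured. In dcr1Δ 0 of 29 passed in limma, beside 3.14% of all features, and 5 had an unadjusted p below 0.05. In dcr1ΔC33 1 rose and 6 fell (24.1% in all, beside 32.3%), or 2 and 10 with the replicate number as a block. Without dcr1ΔC33 array 3 the count was 3. In dcr1-SHSS 2 rose and 8 fell (34.5%, beside 40.7%), and 6 passed without dcr1-SHSS array 3. The highest was cwf23, a gene for a J-domain protein, which rose by 0.37 ± 0.0563 in dcr1ΔC33 (adjusted p = 0.00107) and by 0.46 ± 0.0563 in dcr1-SHSS (0.000199). The lowest were cwf11, which fell by 0.38 and 0.44 (0.000618 and 0.00019), and cwf12, which fell by 0.27 and 0.43 (0.0397 and 0.00391). The call for cwf12 in dcr1ΔC33 was lost without 4 of 6 arrays in turn (adjusted p up to 0.143). The medians of the 29 were 0.00, 0.00 and -0.08, so the difference of 0.33 at prp45 in dcr1ΔC33 lay near the top of a range from -0.38 to 0.37 among these genes.

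The partners of Dicer in RNA interference were 12 genes, among them Argonaute, the RNA-dependent RNA polymerase complex and the RITS complex. In dcr1Δ 0 of 12 passed in limma, beside 3.14% of all features, and 2 had an unadjusted p below 0.05. With the replicate number as a block 2 rose, beside 295 of 5483 features past the threshold. The Argonaute gene ago1 differed by 0.12 ± 0.0343 there (adjusted p = 0.0886, and 0.0413 with the block). In dcr1ΔC33, where the dcr1 difference was 0.31, 3 rose and 1 fell (33.3%, beside 32.3% of all features). They included cid12 (0.29 ± 0.0692, adjusted p = 0.00979) and hrr1 (0.17 ± 0.0439, 0.0154), both subunits of the polymerase complex. Neither call held after quantile normalization, where hrr1 differed by -0.01. The gene dsh1, whose product binds Dicer, fell by 0.36 (0.00157). In dcr1-SHSS 1 rose and 3 fell (33.3%, beside 40.7%), with dsh1 lower by 0.29 (0.00431), stc1 by 0.34 (0.0206) and tri1 by 0.23 (0.0449). The calls for stc1 and tri1 were lost without 3 and 5 of 6 arrays in turn.

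Finally, the features most like each member were found by Pearson correlation of log2 levels over the 12 arrays, which share 4 strains. This is a description without a test. For dcr1 the closest were gdt1 (r = 0.989), SPAC186.04c (0.935), ftm4 (0.91), the acid phosphatase gene pho1 (0.877) and nrg1 (0.831), features that are low in dcr1Δ. The gdt1 mean was 11.84 for wild-type, 8.03 for dcr1Δ, 11.62 for dcr1ΔC33 and 11.66 for dcr1-SHSS. Among these listed features its range over arrays (4.31) came closest in size too. For spn6 the closest were SPAC5H10.04 (r = 0.987), tsp0 (0.986), wtf14 (0.984), htr11 (0.982) and SPBC1683.12 (0.981). Their strain means follow the same 3 levels, as in htr11 with 10.69, 11.47, 12.28 and 12.34 in wild-type, dcr1Δ, dcr1ΔC33 and dcr1-SHSS. The spn6 pattern was common, with 237 features at r of at least 0.9, against 3 for dcr1 and 7 for prp45. For prp45 the closest were SPBC18H10.09 (0.932), SPNCRNA.315 (0.928), SPCC965.09 (0.912), mug93 (0.907) and SPAC16E8.13 (0.904). None of the features named here lies in the window around dcr1.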

How the data were processed

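The deposited table gives log2 levels that the authors had already summarised from probes, 1 for each feature on each array. R 2.10.0 and affy are named per the submitters' processing notes. Normalization, probe summary and genome build: not given in the sources used here. Scale and centring are therefore known only from the values. Such processing can compress differences of dim features such as spn6. No detection calls were used, and 3 arrays per strain limit the precision. The closest 2 replicates differed by 0.057 in the median absolute difference, and all were kept. Beyond the word biological, the labels do not say that replicates were separate cultures, so the p-values measure the spread between these arrays.

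A linear model with 4 groups and 12 arrays was fitted with limma 3.58.1 in R 4.3.3 (eBayes, prior df 2.44, residual df 8). P-values were 2-sided and adjusted by Benjamini-Hochberg across the 5483 features, with a threshold of 0.05. The fit was also run on simulated data with independent noise. That run cannot show how correlation between same-numbered arrays would affect the p-values. Of the IDs, 5357 were found in the gene table of ASM294v3, used for names, neighbours and overlap. The members and lists were chosen with earlier results of these data known. Named genes were the members, window features past the threshold or nearest, every septin, up to 3 genes with the largest change per other list and comparison (otherwise the smallest p), and the 5 features most like each member. The remaining meiosis markers that fell past the threshold, and mei2, were named as well.

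Deviations of same-numbered arrays from their strain means correlated at 0.151, 0.354 and 0.252 between dcr1Δ and wild-type. They correlated at 0.177, 0.388 and 0.223 between dcr1ΔC33 and wild-type, and at 0.0931, 0.284 and 0.266 between dcr1-SHSS and wild-type. The array numbers of the titles may thus pair arrays of different strains, which the labels do not say. The main p-values and counts come from the fit without pairing. With the replicate number as a block, 295 features passed in dcr1Δ in place of 172. In dcr1ΔC33 2267 passed in place of 1771, and in dcr1-SHSS 2653 in place of 2234. Results were recomputed after quantile normalization or median centring, without the dimmest 20 percent of features, with the compared strains alone, with trended robust moderation, with the replicate block and without each array.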

Additional observations from a re-analysis of the deposited data

How the results depend on the processing

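The spn6 and dcr1 differences from wild-type kept their sign under every setting that gave a value. The filter on the dimmest 20 percent left no value for the 3 members, since none averaged above 9.46 over the 12 arrays. For dcr1 that average includes the dcr1Δ arrays, with a mean of 5.56. In wild-type, dcr1ΔC33 and dcr1-SHSS the dcr1 feature was not among the dimmest, at percentiles 33.7 to 40.8 of its arrays. Quantile normalization moved the spn6 difference to 0.49 in dcr1Δ and 1.24 in dcr1ΔC33 and the prp45 difference to 0.07 and 0.18. It moved the difference between dcr1ΔC33 and dcr1-SHSS to 0.15 for dcr1 and 0.10 for prp45, and that of prp45 between dcr1-SHSS and dcr1Δ from -0.05 to 0.02. The cause was not tested. It also left 1 window feature past the threshold in dcr1Δ and 1 septin in dcr1ΔC33, where spn5 turned to -0.18 (adjusted p = 0.0224).

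Near-zero differences that changed sign after it were those of spn3 (0.01) and mug160 (-0.004) in dcr1Δ, hrr1 (-0.01) and svf1 (0.02) in dcr1ΔC33, and prl51 (-0.05) in dcr1-SHSS. Median centring left 1 window feature in dcr1Δ and turned svf1 there to -0.01. With the compared strains alone the counts were 0 in the window for dcr1Δ, 1 septin for dcr1-SHSS and 2 RNA interference partners for dcr1-SHSS. Without the dimmest features, which left 5 of these partners, 2 passed in dcr1ΔC33 and 2 in dcr1-SHSS.

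The replicate block raised the counts to 12 splicing partners in dcr1ΔC33, 2 RNA interference partners in dcr1Δ, 8 meiosis markers in dcr1ΔC33 and 12 in dcr1-SHSS, and moved no other count by over 1.5 times. Leaving out 1 array at a time gave 1 to 3 septins, 6 to 9 splicing partners and 2 to 3 RNA interference partners in dcr1-SHSS, 3 to 7 splicing partners and 3 to 5 meiosis markers in dcr1ΔC33, and 0 to 1 window features in dcr1Δ. Small differences crossed 0 in these fits. In dcr1Δ the ranges were -0.04 to 0.02 for spn1, -0.04 to 0.01 for spn3, -0.06 to 0.04 for spn5, -0.12 to 0.02 for spn7, -0.01 to 0.01 for svf1 and -0.02 to 0.11 for mug160. In dcr1ΔC33 they were -0.05 to 0.01 for spn1, -0.13 to 0.01 for spn7 and -0.05 to 0.05 for mug160. In dcr1-SHSS they were -0.11 to 0.04 for spn7, -0.01 to 0.02 for svf1 and -0.04 to 0.27 for prl51.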

Other observations

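The features most like each member were also found over the 9 arrays of wild-type, dcr1ΔC33 and dcr1-SHSS, an alternative chosen after seeing that dcr1Δ sets the pattern of dcr1 over 12 arrays. These are Pearson correlations given as a description, over arrays that share 3 strains. For spn6 the closest were then SPNCRNA.234 (r = 0.993), ecl1 (0.992), ura4 (0.99), wtf14 (0.99) and SPBC1683.12 (0.989). In dcr1Δ, left out of these correlations, SPNCRNA.234 was close to its level in the other mutants and ura4 was above it, whereas spn6 was below. The SPNCRNA.234 means were 7.55, 12.12, 12.36 and 12.18 for wild-type, dcr1Δ, dcr1ΔC33 and dcr1-SHSS, and those of ura4 were 7.64, 10.86, 10.56 and 10.39, highest in dcr1Δ. Over these 9 arrays r was at least 0.9 with spn6 for 368 features, with prp45 for 39 and with dcr1 for 6. Between the members r was 0.76 for dcr1 and spn6, 0.78 for dcr1 and prp45, and 0.75 for spn6 and prp45, against 0.22, -0.05 and 0.70 over all 12 arrays.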
